A study of Arabidopsis thaliana with 12 samples.

Results

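Ribosome biogenesis genes of the nucleolus, 10 in number, were followed across the 4 groups of the experiment, chosen by their locus identifiers from the 34262 loci of the count files. They are the nucleolins NUC1 and NUC2, the fibrillarins FIB1 and FIB2, the snoRNP core protein NOP56, the Pumilio proteins APUM23 and APUM24, and the pre-rRNA processing factors NOF1, RID2 and SWA1. All 10 passed the filter on low counts. RNA sequencing was done on roots of Arabidopsis thaliana with the genotype 35S:XVE>>PLT5-TagRFP, in which the broadly active 35S promoter drives XVE, an estradiol-activated transcription factor that in turn switches on a fusion of PLT5 to the red fluorescent protein TagRFP. The mock groups received DMSO, the solvent, and the induced groups the inducer (EST in the labels), for 8 h or for 24 h. Each group has 3 biological replicates, and the mock plants carried the same construct. Each replicate was a pool of root segments, 1.5 cm long, from just below the hypocotyl junction of 15 plants, without their visible lateral roots. Neither the age of the plants nor the number of independent lines is given in the labels used here.

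Ribosomes are assembled in the nucleolus, where RNA polymerase I transcribes a long precursor rRNA that is modified, cut and folded around ribosomal proteins by a large set of assembly factors. Nucleolin acts on the chromatin of the rRNA genes and in early cutting of the precursor, and fibrillarin is the methyltransferase of the box C/D snoRNPs, small nucleolar ribonucleoproteins in which NOP56 is a core protein. In roots the pathway is most active in dividing and growing cells, and mutants in several of these genes grow slowly and make narrow, pointed leaves.

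The 12 libraries held between 34958324 and 41447647 counts each, and 21439 genes were tested. Levels below are CPM, counts per 1000000 counts of the TMM-scaled library. Fold changes are log2 values from the edgeR quasi-likelihood test with their standard error (SE), p-values were adjusted over all genes tested by the Benjamini-Hochberg method, and "rose" and "fell" are used for genes with an adjusted p under 0.05. PLT5 followed the labels in every library, with 12.3 to 15.0 CPM in mock and 2383 to 2632 CPM in induced roots at 8 h, and 11.8 to 17.2 CPM in mock and 2688 to 2929 CPM in induced roots at 24 h. All 4 mature root markers (PYK10, PHO1, SKOR and CYP86A1) were detected in each group, although SKOR averaged only 0.26 to 1.15 CPM per group. Members gave between 264 counts (NUC2) and 13021 counts (NUC1) in a library. The 4 annotated rRNA loci together held 0 or 1 count per library, so rRNA itself was not measured here.

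The nucleolins and the fibrillarins are each a pair of gene copies, and the promoters of these 4 genes are shown because fold changes within a pair are compared below. Each line gives the 250 bases before the annotated start, read 5′ to 3′ on the gene's strand from the RefSeq TAIR10.1 genome. None of these 4 windows overlaps an annotated gene. Capitals mark matches to the telo-box (AAACCCTA) or to site II (TGGGCC or TGGGCT), elements known from promoters of plant ribosomal protein genes, in either strand.
NUC1, chr1:18097831-18098080, plus strand: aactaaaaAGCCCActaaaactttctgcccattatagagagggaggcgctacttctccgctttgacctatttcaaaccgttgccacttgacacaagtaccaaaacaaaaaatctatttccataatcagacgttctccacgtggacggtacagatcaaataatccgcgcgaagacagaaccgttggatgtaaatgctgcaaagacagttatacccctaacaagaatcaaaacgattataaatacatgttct
NUC2, chr3:6407947-6408196, minus strand: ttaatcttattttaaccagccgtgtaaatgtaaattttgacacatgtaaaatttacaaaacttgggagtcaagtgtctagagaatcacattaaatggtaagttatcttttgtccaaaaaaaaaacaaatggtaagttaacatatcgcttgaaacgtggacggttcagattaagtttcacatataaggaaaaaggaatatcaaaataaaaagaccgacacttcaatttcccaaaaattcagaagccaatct
FIB1, chr5:21293897-21294146, plus strand: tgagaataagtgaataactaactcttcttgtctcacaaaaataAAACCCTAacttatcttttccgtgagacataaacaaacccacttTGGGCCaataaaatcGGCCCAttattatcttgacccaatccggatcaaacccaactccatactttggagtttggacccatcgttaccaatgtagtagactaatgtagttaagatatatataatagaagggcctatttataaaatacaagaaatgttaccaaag
FIB2, chr4:13073840-13074089, plus strand: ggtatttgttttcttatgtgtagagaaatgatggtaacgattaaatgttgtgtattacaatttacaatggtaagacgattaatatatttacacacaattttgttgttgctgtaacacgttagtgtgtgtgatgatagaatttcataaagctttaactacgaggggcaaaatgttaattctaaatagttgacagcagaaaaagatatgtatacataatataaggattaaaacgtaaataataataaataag
The NUC1 window holds 1 site II, 242 to 237 bases before the start. The FIB1 window holds 1 telo-box and 2 site II matches, all within 207 to 143 bases of the start. The windows of NUC2 and FIB2, the copies with the larger fold change at 24 h, hold neither set of letters. Over all members 6 of 10 windows had a site II and 2 of 10 a telo-box, against 19.2% and 4.49% of the windows of 27443 protein-coding genes. NOP56 had 3 site II matches and 1 telo-box, NOF1 and SWA1 had 2 site II matches each, RID2 had 1, and APUM23 and APUM24 had none. The log2 fold change at 24 h was 0.54 for APUM23, the smallest of the 10 members, and 0.80 for both APUM24 and NUC1. A relation between matches and fold changes was not tested. No match overlapped another. Among the other lists, 14 of 17 small subunit factors, 7 of 11 snoRNP proteins, 10 of 23 large subunit factors, 17 of 29 ribosomal proteins and 0 of 7 RNA polymerase I genes had a site II. A match is a string of letters and not a shown binding site.

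Expression of all 10 members was higher in induced than in mock roots at 24 h, and only part of that rise was present at 8 h. At 24 h 10 of 10 members rose, against 38.3% of all genes tested (34% were lower), with log2 fold changes from 0.54 (APUM23) to 1.77 (NUC2) and a median of 0.74, where the median of all genes was 0.06. At 8 h 4 of 10 rose (NUC2, APUM23, APUM24 and RID2), against 22.3% of all genes (23.1% were lower), and the median was 0.17. The response at 24 h exceeded that at 8 h for 10 of 10 members by a test of the difference, against 18.2% of all genes. Without induction 0 of 10 members were called between 8 h and 24 h with edgeR or with DESeq2, against 0.662% of all genes. Of those 10, 3 had an unadjusted edgeR p under 0.05, against 2032 of 21439 genes. With DESeq2 4 members had an unadjusted p under 0.05, as did 1826 genes in all. From 8 h to 24 h in mock roots, 9 of 10 members had a log2 difference above 0 (median 0.16). Over all genes it was 10396 of 21439 (median -0.004). Scaling by total library size in place of TMM factors shifted the median gene by 0.096 on the log2 scale at 8 h, and by 0.142 at 24 h. Among genes called, the higher share went with it from 49.1% to 65.1% at 8 h and from 53.0% to 62.9% at 24 h, against 43.8% and 49.5% with RLE factors. At 24 h 10 of 10 members rose under each scaling, and at 8 h total library size called 6, FIB1 and NOF1 in addition. In whole root segments, more cells of a type and more RNA per cell cannot be told apart.

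Summed over the 10 genes, the level was 642, 567.7 and 602.7 CPM in the 3 mock libraries and 628.9, 638.6 and 685.1 CPM in the induced libraries at 8 h. It was 662.5, 616.5 and 739.1 CPM in mock and 1204, 1156 and 1120 CPM in induced libraries at 24 h. The 3 induced libraries at 24 h lay far above the other 9, while the ranges of mock and induced roots at 8 h overlapped.

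**Figure D1:**
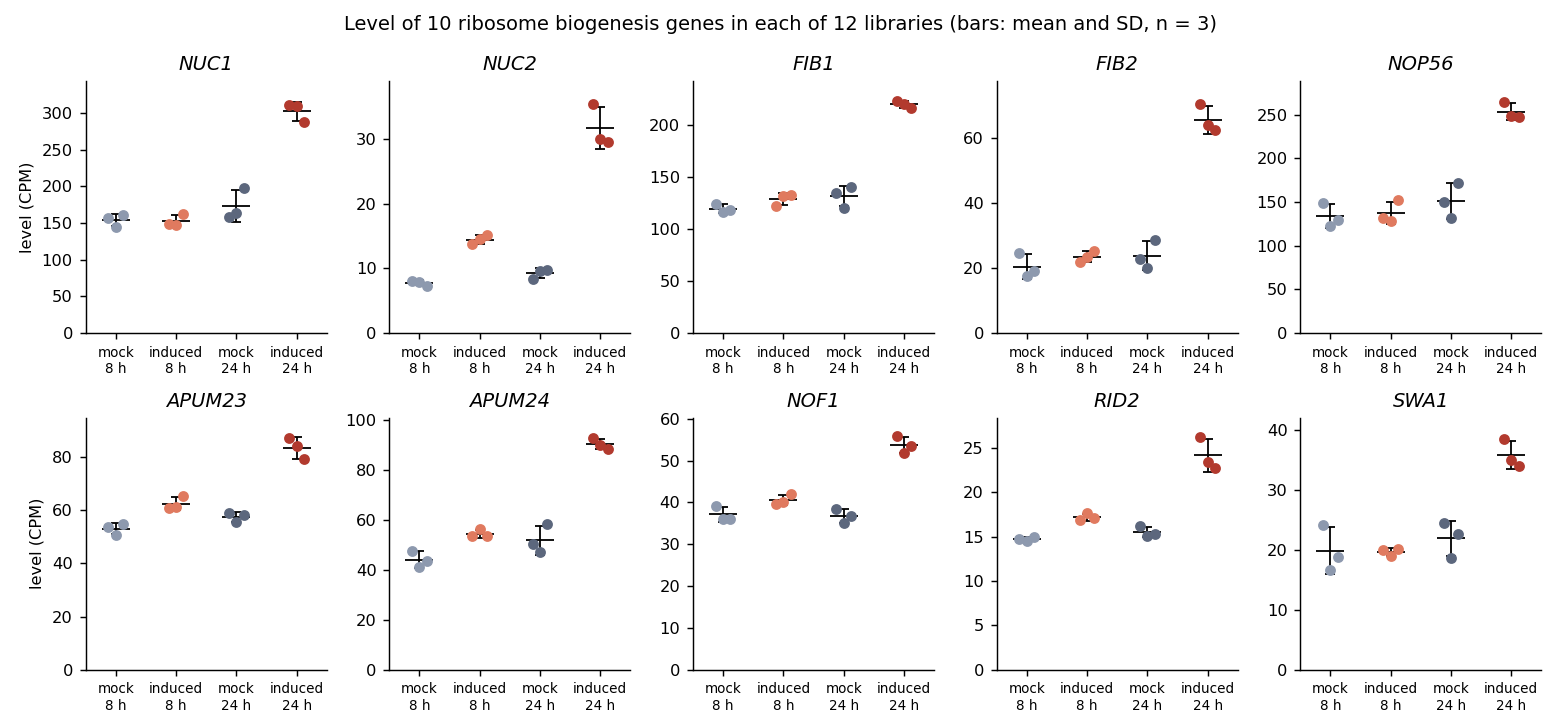
Level of each of the 10 genes in CPM (linear axis from 0) in the 3 libraries of each group, 1 point per library, with the mean and SD. All 3 induced libraries at 24 h stand above the 9 others for every gene, and at 8 h the induced points of NUC2, APUM23, APUM24, RID2 and NOF1 lie above the mock points.

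NUC1 (AT1G48920, chromosome 1, 18098081 to 18101732, plus strand, 15 exons) encodes the nucleolin that is the main form in most Arabidopsis tissues. At 8 h it measured 156.3, 144.9 and 160.6 CPM in mock and 148.3, 146.7 and 161.8 CPM in induced roots. At 24 h it measured 158.1, 164.1 and 197.9 CPM in mock and 310.2, 309.4 and 287.0 CPM in induced roots. The groups overlapped at 8 h and were clearly apart at 24 h, where mock replicate 3 was the highest of the 9 other libraries. The fold change at 8 h, -0.02 on the log2 scale, was not called (SE 0.080, adjusted p = 0.889, 95% interval -0.20 to 0.17). At 24 h it rose by 0.80 (SE 0.080, adjusted p = 1.84e-06), and the responses differed by 0.82 (SE 0.114, adjusted p = 0.000135). NUC1 overlaps 90 bases of a gene on the other strand, GH9C1, which held 17 to 103 counts per library, far below the 4834 or more of NUC1.

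NUC2 (AT3G18610, chromosome 3, 6404053 to 6407946, minus strand) is the second nucleolin, known in Arabidopsis as the less expressed copy that is raised when NUC1 is lost. It measured 8.10, 7.91 and 7.36 CPM in mock and 13.7, 14.5 and 15.2 CPM in induced roots at 8 h. At 24 h NUC2 measured 8.44, 9.61 and 9.78 CPM in mock and 35.4, 30.1 and 29.6 CPM in induced roots. Every induced library stood above every mock library at both times. NUC2 rose by 0.89 at 8 h (SE 0.088, adjusted p = 7.35e-06) and by 1.77 at 24 h (SE 0.086, adjusted p = 2.39e-09), both the largest changes among the members. The response grew by 0.88 between the times (SE 0.122, adjusted p = 0.000134).

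Relative to NUC1, counts of NUC2 were 5.18%, 5.46% and 4.58% in mock and 9.27%, 9.91% and 9.36% in induced roots at 8 h. At 24 h they were 5.34%, 5.85% and 4.94% in mock and 11.4%, 9.74% and 10.3% in induced roots. The share was thus higher in all 3 induced libraries at both times, by 0.91 at 8 h and 0.96 at 24 h on the log2 scale. The exact two-sided permutation test gave p = 0.1 for each, the smallest p that 3 against 3 libraries allow (0.133 after adjustment over the 4 copy comparisons made). NUC2 stayed the minor copy in every library.

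FIB1 (AT5G52470, chromosome 5, 21294147 to 21296819, plus strand) and FIB2 (AT4G25630, chromosome 4, 13074090 to 13076432, plus strand) encode the fibrillarins. FIB1 measured 124.2, 115.8 and 118.4 CPM in mock and 121.9, 131.9 and 132.8 CPM in induced roots at 8 h. At 24 h FIB1 measured 134.4, 120.4 and 139.9 CPM in mock and 222.9, 219.8 and 216.2 CPM in induced roots. The ranges overlapped at 8 h, where the log2 fold change was 0.11 (SE 0.059, adjusted p = 0.153), and were apart at 24 h, where FIB1 rose by 0.74 (SE 0.059, adjusted p = 2.35e-07). FIB2 measured 24.7, 17.5 and 18.9 CPM in mock and 21.98, 23.3 and 25.2 CPM in induced roots at 8 h. At 24 h FIB2 measured 22.9, 19.8 and 28.6 CPM in mock and 70.4, 63.8 and 62.3 CPM in induced roots. Mock replicate 1 at 8 h lay inside the induced range, and at 24 h all induced libraries were far above any mock library. FIB2 was not called at 8 h (log2 fold change 0.20, SE 0.139, adjusted p = 0.258) but was called without mock 8 h replicate 1, at 0.37 (adjusted p = 0.0438, the lowest of 18 alternatives that ran up to 0.597). FIB2 rose by 1.46 at 24 h (SE 0.137, adjusted p = 9.7e-07), and its difference between the times, 1.26 (SE 0.194, adjusted p = 0.000289), was the largest of the 10.

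Counts of FIB2 relative to FIB1 were 19.9%, 15.1% and 15.97% in mock and 18.03%, 17.7% and 18.98% in induced roots at 8 h, with overlapping ranges (exact permutation p = 0.4). At 24 h they were 17.03%, 16.5% and 20.5% in mock and 31.6%, 29.0% and 28.8% in induced roots, without overlap (difference 0.73 on the log2 scale, exact permutation p = 0.1, the smallest possible). The fibrillarin copies are similar in sequence, and how the authors' counting split reads between them is not stated in the labels, so the level of each copy is less certain than their sum. Each also hosts a snoRNA gene in its span, U60.1F in FIB1 and U60.2F in FIB2, which held 0 counts in all libraries.

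**Figure D2:**
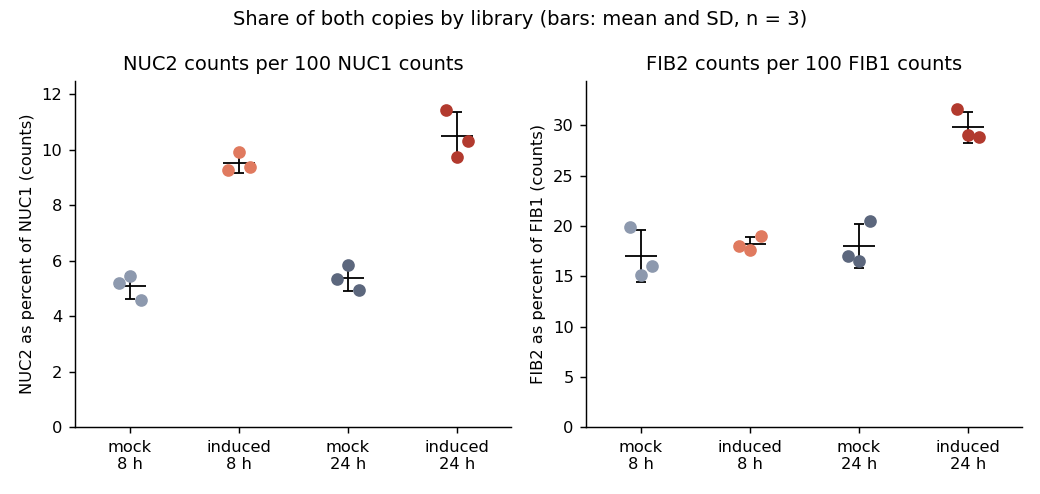
Counts of the minor copy as a percentage of counts of the major copy, 1 point per library with mean and SD (n = 3), for NUC2 against NUC1 (left) and FIB2 against FIB1 (right), on linear axes from 0. The nucleolin share is higher in induced libraries at both times, and the fibrillarin share is higher at 24 h, at 28.8% to 31.6%, and overlaps between groups at 8 h.

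NOP56 (AT1G56110, chromosome 1, 20984273 to 20986952, minus strand) encodes a scaffold protein of box C/D snoRNPs. It measured 149.1, 122.4 and 129.2 CPM in mock and 131.9, 127.9 and 152.0 CPM in induced roots at 8 h. At 24 h NOP56 measured 150.3, 131.1 and 171.8 CPM in mock and 264.7, 248.4 and 246.7 CPM in induced roots. Its libraries were mixed between the groups at 8 h, and the fold change there was 0.04 (SE 0.101, adjusted p = 0.777, 95% interval -0.19 to 0.27). NOP56 rose by 0.75 at 24 h (SE 0.101, adjusted p = 2.63e-05).

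SWA1 (AT2G47990, chromosome 2, 19636867 to 19638678, minus strand, 1 exon), NOF1 (AT1G17690, chromosome 1, 6082722 to 6088381, minus strand) and RID2 (AT5G57280, chromosome 5, 23204377 to 23206663, plus strand) act on the precursor of the small subunit rRNA. SWA1, a WD-repeat protein required for division in the female gametophyte, measured 24.2, 16.7 and 18.8 CPM in mock and 20.03, 18.9 and 20.1 CPM in induced roots at 8 h. At 24 h SWA1 measured 24.4, 18.7 and 22.7 CPM in mock and 38.6, 35.0 and 34.0 CPM in induced roots. Mock roots thus spanned the induced range at 8 h, while the groups were apart at 24 h. SWA1 was not called at 8 h (-0.02, SE 0.126, adjusted p = 0.921) and rose by 0.71 at 24 h (SE 0.124, adjusted p = 0.000217). It shares 112 bases with SCC3 on the other strand, which held 3452 to 5519 counts per library against 557 to 1618 for SWA1. A non-coding RNA gene on the other strand, AT2G09975, covers 556 of the 1812 exon bases of SWA1 and held 0 to 7 counts per library. The strand setting of the counting is not given, so reads of these stretches cannot be assigned with certainty.

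NOF1, a nucleolar protein annotated as associated with the U3 snoRNA, measured 39.2, 36.0 and 36.1 CPM in mock and 39.6, 40.2 and 41.9 CPM in induced roots at 8 h. At 24 h NOF1 measured 38.5, 35.2 and 36.7 CPM in mock and 55.8, 51.9 and 53.4 CPM in induced roots. The induced libraries were all above the mock libraries at both times, by a narrow margin at 8 h. NOF1 did not pass the threshold at 8 h (0.13, SE 0.054, adjusted p = 0.0725), but passed without mock 8 h replicate 1 (0.17, adjusted p = 0.0358, where its 18 alternatives ran from 0.00329 to 0.213). NOF1 rose by 0.55 at 24 h (SE 0.054, adjusted p = 1.66e-06).

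RID2, a methyltransferase-like nucleolar protein first found through root initiation mutants, measured 14.7, 14.5 and 15.0 CPM in mock and 16.9, 17.6 and 17.1 CPM in induced roots at 8 h. At 24 h RID2 measured 16.2, 15.0 and 15.3 CPM in mock and 26.2, 23.4 and 22.8 CPM in induced roots. Its replicates at 8 h were close together and did not overlap between groups. RID2 rose by 0.22 at 8 h (SE 0.063, adjusted p = 0.0131) and by 0.64 at 24 h (SE 0.062, adjusted p = 1.36e-06).

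APUM23 (AT1G72320, chromosome 1, 27228059 to 27233167, minus strand) and APUM24 (AT3G16810, chromosome 3, 5723222 to 5727664, minus strand) are Pumilio RNA-binding proteins of the nucleolus that act in trimming of rRNA precursors. APUM23 measured 53.6, 50.7 and 55.0 CPM in mock and 61.0, 61.2 and 65.4 CPM in induced roots at 8 h. At 24 h APUM23 measured 59.1, 55.5 and 58.2 CPM in mock and 87.3, 84.2 and 79.2 CPM in induced roots. Its groups did not overlap at either time, and it rose by 0.24 at 8 h (SE 0.054, adjusted p = 0.00356) and by 0.54 at 24 h (SE 0.053, adjusted p = 1.68e-06). APUM24 measured 47.7, 41.1 and 43.5 CPM in mock and 53.4, 56.3 and 53.6 CPM in induced roots at 8 h. At 24 h APUM24 measured 50.2, 47.0 and 58.3 CPM in mock and 92.6, 89.8 and 88.5 CPM in induced roots. APUM24 was likewise higher in every induced library than in the mock libraries of the same time, and rose by 0.30 at 8 h (SE 0.076, adjusted p = 0.00627) and by 0.80 at 24 h (SE 0.076, adjusted p = 1.03e-06).

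Between the times, the log2 response grew most for FIB2 and least for APUM23, where the difference was 0.30 (SE 0.076, adjusted p = 0.00712). It grew by 0.63 for FIB1, 0.71 for NOP56, 0.73 for SWA1, 0.50 for APUM24, and 0.42 for both NOF1 and RID2, with adjusted p-values between 9.64e-05 and 0.0059. As a share of the 24 h log2 fold change, the value at 8 h was 50.3% for NUC2, 43.8% for APUM23, 37.9% for APUM24 and 34.5% for RID2. It was 23.5% for NOF1, 14.8% for FIB1, 13.8% for FIB2 and 5.3% for NOP56, and the 8 h values of NUC1 and SWA1 were slightly below 0. Compared directly, induced roots at 24 h were higher than induced roots at 8 h for 10 of 10 members (27.9% of all genes), with log2 differences from 0.40 for NOF1 to 1.48 for FIB2.

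**Figure D3:**
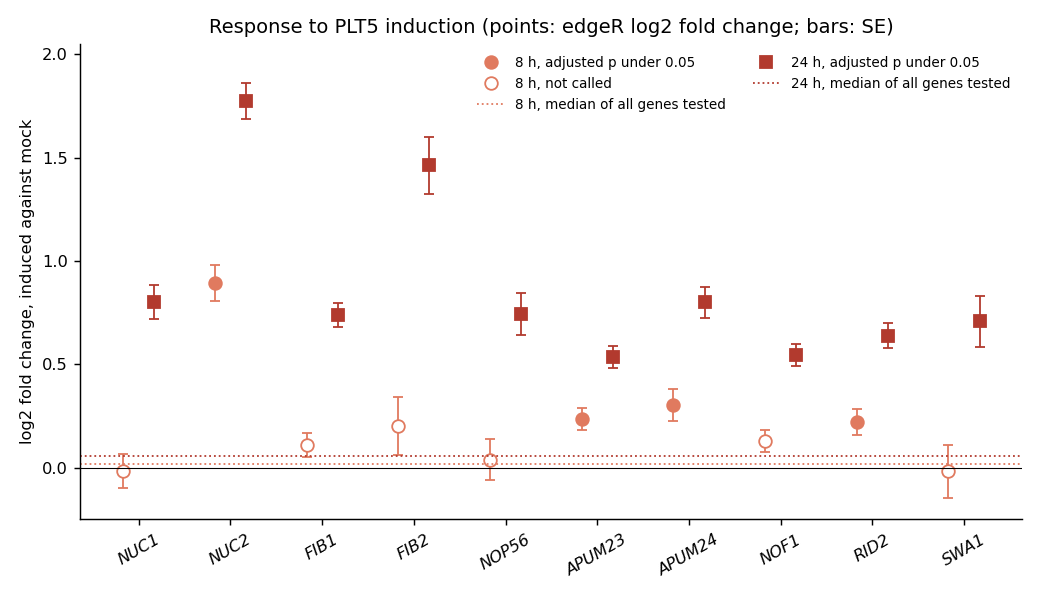
Log2 fold change of induced against mock roots for each gene at 8 h (circles) and 24 h (squares), with SE from the fit of 12 libraries. Filled symbols have an adjusted p under 0.05 and dotted lines mark the median of all genes tested. All 10 squares are filled and lie between 0.54 and 1.77, and 4 of the 10 circles are filled.

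Without regard to the model, the CPM ranges of induced and mock roots did not overlap for 5 of 10 members at 8 h (28.2% of all genes lay above in this way) and for 10 of 10 at 24 h (40.4%). In mock roots 3 of 10 members (NUC2, APUM23 and RID2) were above their 8 h range at 24 h, against 6.72% of all genes. Their log2 differences in mock roots were 0.25, 0.12 and 0.07, and none was called (adjusted p = 0.345, 0.529 and 0.815). In induced roots at 24 h replicate 1 was the highest library for 10 of 10 members, and in mock roots at 24 h the highest was replicate 3 for 6 and replicate 1 for 4. At 8 h it was replicate 1 for 7 and replicate 3 for 3 members in mock roots. In induced roots at 8 h it was replicate 3 for 8 and replicate 2 for 2. The same count over all genes was not made.

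Divided by exon length, so that genes can be compared, FIB1 had the highest mean level in every group, at 86.6 ± 3.1 CPM per kb (SD, n = 3) in mock roots at 8 h and 159 ± 2.4 CPM per kb in induced roots at 24 h. Its range overlapped that of NUC1 in mock roots at 24 h. NUC1 and NOP56 followed, and their ranges overlapped in every group (73.7 ± 3.9 and 70.3 ± 7.3 CPM per kb in mock roots at 8 h). NUC2 was lowest in every group, from 3.46 ± 0.17 CPM per kb in mock roots at 8 h to 14.1 ± 1.4 CPM per kb in induced roots at 24 h, and its range stayed below that of the next gene, SWA1. FIB2 changed place: its range overlapped those of APUM24 and APUM23 in mock roots at 8 h, at 15.2 ± 2.8 CPM per kb. In induced roots at 24 h FIB2 reached 48.9 ± 3.2 CPM per kb, above APUM24 at 39.9 ± 0.9 without overlap. NOF1, RID2 and SWA1 lay close together at 24 h in induced roots, at 20.3, 20.04 and 19.8 CPM per kb, with overlapping ranges. The overlaps of SWA1 with genes on the other strand make its level per kb less certain.

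Genes with the profile most like that of NUC1 over the 12 libraries were sought among 15898 genes outside the members with at least 5 CPM on average. By root-mean-square difference of centred log2 CPM these were AT3G04840, annotated as ribosomal protein S3Ae (0.066), AT4G15890 (0.068), MCM10 (0.068), TSK (0.074) and HSP60-3A (0.079). AT3G04840 averaged 282.9, 275.7, 313.0 and 520.7 CPM in mock 8 h, induced 8 h, mock 24 h and induced 24 h roots. Among the members NOP56 was nearest to NUC1 (0.087) and NUC2 farthest (0.48). No test was made on this likeness.

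Further genes of the pathway were counted in lists. The 6 lists of ribosome genes other than the members held 92 tested genes, of which 24 rose and 0 fell at 8 h, and 91 rose and 0 fell at 24 h. As 22.3% of all genes were called higher at 8 h and 38.3% at 24 h, the pooled 8 h count of risers lay near the background. The count of 0 that fell at 8 h stood beside 23.1% of all genes. Of the 92 fold changes at 8 h, 70 were above 0, against 11278 of 21439 over all genes. At 24 h all list medians lay between 0.53 and 0.73, beside 0.06 for all genes. Outside the ribosomal proteins, 24 of 63 rose at 8 h, with a median of 0.17, and 62 of 63 at 24 h.

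Among 10 tested snoRNP proteins, partners of fibrillarin and NOP56 or subunits of the box H/ACA class, all rose at 24 h, against 38.3% of all genes. NOP58-1 went from 74.3 ± 11.6 to 167 ± 9.2 CPM (log2 fold change 1.17, adjusted p = 6.17e-07) and its copy NOP58-2 from 97.2 ± 9.5 to 157 ± 7.8 CPM (0.69, adjusted p = 1.08e-05). The gene NOP56-like (AT3G12860) rose by 1.42 (adjusted p = 5.54e-06), from a low level of 6.18 ± 1.1 CPM. The H/ACA proteins CBF5, the pseudouridine synthase, GAR1, NHP2 and NOP10 rose by 0.67, 0.97, 0.65 and 0.89, and the SNU13a, SNU13b and SNU13c copies by 0.67, 0.66 and 0.65. At 8 h only NOP10 (0.21, adjusted p = 0.0265) and SNU13b (0.26, adjusted p = 0.0158) were called, 2 of 10 beside 22.3% of all genes called higher. That count of 2 became 1 when mock 8 h replicate 2, mock 8 h replicate 3 or induced 8 h replicate 2 was left out, and 0 when induced 8 h replicate 3 was. Another fibrillarin gene, FIB3, had 0 counts in all 12 libraries and was not tested.

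All 16 tested small subunit assembly factors rose at 24 h (median 0.72), among them the dimethyltransferase DIM1A (0.70, adjusted p = 6.07e-08), the RNA helicase RH36 (0.96, adjusted p = 1.41e-07), TOZ (0.78, adjusted p = 8.4e-07) and PWP2 (0.93, adjusted p = 1.01e-06). At 8 h 5 of 16 rose (22.3% of all genes), DIM1A by 0.42 (adjusted p = 2.5e-05), and all 16 fold changes were above 0. The count at 8 h was 9 when mock 8 h replicate 1 was left out, 2 for mock 8 h replicate 2, mock 8 h replicate 3 or induced 8 h replicate 3, and 3 for induced 8 h replicate 2. EMB2271 had 0 counts in all libraries. Of 23 large subunit assembly factors 22 rose at 24 h (median 0.73), led by adjusted p by MRT4 (0.86, adjusted p = 9.08e-09), the helicase RH7 (0.93, adjusted p = 7.6e-08) and the GTPases NOG1-1 (0.77, adjusted p = 8.02e-08) and LSG1-2 (0.83, adjusted p = 1.72e-07). The exception, named after its value was seen, was REIL1, a late cytosolic factor (-0.04, SE 0.055, adjusted p = 0.485), while its copy REIL2 rose by 0.47 (adjusted p = 0.000136). At 8 h 9 of 23 rose, with PPAN (0.37) and MRT4 (0.33) highest. Over all genes 22.3% rose at 8 h and 38.3% at 24 h.

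RNA polymerase I and its initiation factor RRN3 were called in full at 24 h, 7 of 7 genes, with a median of 0.68. The largest subunit NRPA1 rose by 0.43 (adjusted p = 0.000112), NRPA2 by 0.68 (adjusted p = 7.07e-07), NRPA3a by 0.75, NRPA3b by 0.93 and NRPA12 by 0.70. The copies RRN3a and RRN3b rose by 0.35 and 0.68. At 8 h 4 of 7 rose: NRPA2 (0.27), NRPA3a (0.35), RRN3a (0.20) and RRN3b (0.27). The RNA exosome and exonuclease genes followed the same count, 4 of 7 at 8 h and 7 of 7 at 24 h, against 22.3% and 38.3% of all genes. In order of adjusted p at 24 h, the exonuclease XRN2 rose by 0.67, the helicase MTR4 by 0.60, RRP44A by 0.51 and XRN3 by 0.34.

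Genes for cytosolic ribosomal proteins gave no call at 8 h and were called throughout at 24 h. With edgeR 0 of 29 were called at 8 h, against 22.3% of all genes called higher and 23.1% called lower. An unadjusted edgeR p under 0.05 was found for 0 of 29, against 11275 of 21439 genes. DESeq2 also called 0 of the 29, with 1 unadjusted p under 0.05. The median was -0.02. At 24 h 29 of 29 rose, against 38.3% of all genes. Their median was 0.61, with a range from 0.38 (RPS5A) to 0.84 (RPL24B). By the test of the difference, 29 of 29 responses were higher at 24 h than at 8 h, against 18.2% of all genes. The lowest adjusted p-values were those of RPS13A (0.62, adjusted p = 8.22e-07), RPL5A (0.69, adjusted p = 8.78e-07), RPS6B (0.56, adjusted p = 9.37e-07) and RPL28A (0.66, adjusted p = 1.34e-06). RPL5A went from 581 ± 50.7 CPM in mock to 937 ± 11.4 CPM in induced roots at 24 h. Many of these genes have near-identical copies, and reads may be split between them.

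**Figure D4:**
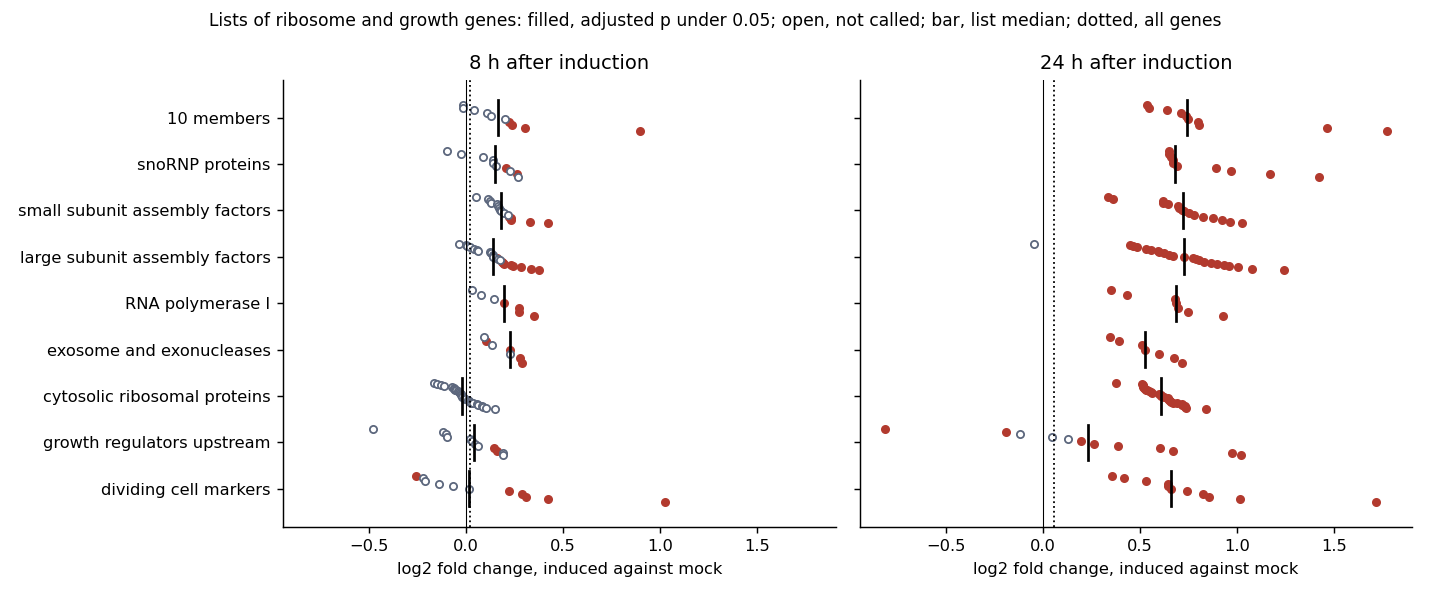
Log2 fold change of induced against mock roots at 8 h (left) and 24 h (right) for the 10 members and 8 lists, 1 point per gene, with the list median as a bar and the median of all genes dotted. At 8 h the ribosomal proteins centre on -0.02 with no filled point, and at 24 h every ribosome list has a median between 0.53 and 0.73.

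Regulators that act upstream of ribosome production gave a mixed picture. Of 12 genes 2 rose (LST8-1 and ANAC082) and 0 fell at 8 h, against 22.3% and 23.1% of all genes. At 24 h 7 rose and 2 fell, against 38.3% and 34% of all genes. The count of 2 at 8 h became 1 when mock 8 h replicate 3 or induced 8 h replicate 2 was left out, and 0 when induced 8 h replicate 1 was. The count of 2 that fell at 24 h became 0 with mock 24 h replicate 3 or induced 24 h replicate 2 left out. It became 1 with mock 24 h replicate 1, induced 24 h replicate 1 or induced 24 h replicate 3 left out, and 1 with total library size. The nucleolar histone deacetylases HD2D (1.02, adjusted p = 3.87e-06), HD2A (0.98, adjusted p = 6.64e-06) and HD2B (0.67, adjusted p = 7.51e-06) and the nucleolar stress regulator ANAC082 (0.39, adjusted p = 7.78e-06) had the lowest adjusted p-values at 24 h. The kinase genes behind the count of 2 were S6K1 (-0.19, adjusted p = 0.0277) and S6K2 (-0.81, adjusted p = 0.0166), the substrates of TOR. TOR itself, at 243 ± 9.1 CPM in mock roots and 251 ± 5.0 CPM after 24 h of induction, was not called (0.05, SE 0.044, adjusted p = 0.361), nor were TCP20 (-0.12) and HD2C (0.13). S6K1, S6K2, TOR, TCP20 and HD2C were named after their values were seen.

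Markers of dividing cells rose with the members at 24 h and were split at 8 h. All 11 rose at 24 h (median 0.66), against 38.3% of all genes. Their summed level was 602 to 685 CPM in mock and 1008 to 1170 CPM in induced roots. At 8 h 5 rose and 1, the cytokinesis gene KNOLLE, fell (-0.26, adjusted p = 0.00451), against 22.3% and 23.1% of all genes. The sums were 493 to 593 CPM in mock and 553 to 602 CPM in induced roots. Mean levels of MCM2, MCM3, MCM5 and MCM7 were higher in induced roots at 8 h (MCM7 55.0 CPM in mock and 73.5 CPM in induced). Those of CYCB1;1, CDKB1;1, CDKB2;1 and TSO2 were lower without a call (CDKB2;1 43.1 and 37.1 CPM). The replication gene regulator E2FA rose by 1.02 at 8 h and 1.72 at 24 h. In mock roots 3 of 11 (CDKB1;1, CDKB2;1 and KNOLLE) rose between 8 h and 24 h, where no member was called. This count of 3 became 0 when any mock library other than mock 24 h replicate 2 was left out, and 0 with only the 6 mock libraries. The summed level of 4 mature root markers was 18913 to 20304 CPM in mock and 9006 to 10376 CPM in induced roots at 24 h, nearly all of it PYK10. Of these markers 2 of 4 fell at 8 h and 3 of 4 at 24 h, against 23.1% and 34% of all genes. Mean levels in mock and induced roots at 24 h were 341 and 13.5 CPM for CYP86A1 and 129 and 17.8 CPM for PHO1. For SKOR they were 1.15 and 0.73 CPM. The 4 lateral root founder markers summed to 1.76 to 2.63 CPM in mock and 5.02 to 5.59 CPM in induced roots at 24 h. Most of the latter was LBD16, while LBD18 fell from 0.79 to 0.41 CPM and LBD29 (0.19 and 0.12 CPM) and GATA23 (0.09 and 0.008 CPM) were near 0. The 5 green tissue markers summed to 1050 to 1283 CPM in mock and 917 to 1013 CPM in induced roots. No defining marker of these lists was at 0 throughout a group. The part of any of these cell types in the rise of the ribosome genes was not tested.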

How the data were processed

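Gene counts came from RNA sequencing of 12 root libraries, for which the labels name a stranded TruSeq kit for total RNA. The deposited files hold whole-number counts for 34262 loci each, per the file headers with coordinates. The submitters' processing notes name TAIR10 as the build. No aligner, counting program or strand setting is given in the sources used here, and reads of overlapping or near-identical genes may be misassigned. No row holds unassigned reads, and no 2 libraries were identical.

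Loci were matched to RefSeq TAIR10.1 for 32536 loci, of which 99.95% had the same coordinates. Counts were tested in R 4.3.3 with edgeR 4.0.16 (quasi-likelihood F test, TMM factors, filterByExpr by group, 1 coefficient per group over 12 libraries, 8 residual degrees of freedom), which left 21439 genes. Benjamini-Hochberg adjustment ran over all genes tested, and genes were called at 0.05. The SE is the absolute log2 fold change divided by the square root of F, and 95% intervals use 8 degrees of freedom. The F test adds degrees of freedom drawn from all genes, so these intervals are wider than its unadjusted p-values imply. The biological coefficient of variation was 0.093. Promoter windows of 250 bases were read from the RefSeq genome and searched in both strands. Copy ratios were compared with exact permutation tests in Python 3.11.15. They were chosen after the values were seen.

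All members were described in each contrast. From each other list, up to 4 called genes were named in order of adjusted p at 24 h, with every snoRNP protein and RNA polymerase I gene. Genes outside this rule, among them PPAN, RPS5A, RPL24B, LST8-1, KNOLLE and several other cell type markers, were named after their values were seen. The members and lists were chosen with earlier results of these data known, so their counts are descriptions. Of 6 housekeeping genes, 2 fell at 8 h, and 2 rose and 2 fell at 24 h. Alternatives were RLE factors, total library size, no filter, DESeq2 1.42.0, only the libraries of a contrast, a replicate block, and leaving out each library.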

Additional observations from a re-analysis of the deposited data

Results flagged for a closer look

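Each of the 10 members is listed here because its response to induction differed between 8 h and 24 h by a test of the difference (edgeR, adjusted over all genes, 18.2% of which were called higher in this test). The 24 h log2 response exceeded the 8 h response by 0.8177 for NUC1, 0.8809 for NUC2, 0.6299 for FIB1, 1.26 for FIB2 and 0.7059 for NOP56. The excess was 0.3015 for APUM23, 0.4972 for APUM24, 0.418 for NOF1, 0.4191 for RID2 and 0.7274 for SWA1. In the 24 h contrast alone, all 3 induced libraries lay above all 3 mock libraries for every member, and for 40.4% of all genes tested. The summed level of 11 markers of dividing cells was also higher at 24 h, at 1008 to 1170 CPM in induced against 602 to 685 CPM in mock roots, and its part in these differences was not tested.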

How the results depend on the processing

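All member calls at 24 h, in the difference between the times and between the induced groups held under the 17 or 18 alternatives run for each, as did the calls of NUC2, APUM23, APUM24 and RID2 at 8 h (highest adjusted p for RID2, 0.0477). The number of members called at 8 h ranged from 4 to 6. FIB1 (0.21) and NOF1 (0.23) passed with total library size, and NOF1 also with the replicate block (0.13, adjusted p = 0.0477). Signs of values that were not called turned in 10 cases, and leaving out 1 library gave values down to -0.061 for NUC1 and -0.127 for SWA1 at 8 h and -0.048 for NOF1 in mock roots over time. At 8 h these were NUC1 with total library size (0.080), without mock 8 h replicate 3 (0.016) and without induced 8 h replicate 2 (0.011), NOP56 without mock 8 h replicate 2 (-0.019) and induced 8 h replicate 3 (-0.039), and SWA1 with total library size (0.079), without mock 8 h replicate 1 (0.15) and without induced 8 h replicate 2 (0.011). For NOF1 in mock roots over time they were 0.028 without mock 8 h replicate 1 and 0.017 without mock 24 h replicate 2. Over all genes, the 142 calls between the mock groups became 386 with DESeq2, 271 with the replicate block and 0 with only those 6 libraries (1691 at an unadjusted p under 0.05). They ranged from 1 to 204 when single libraries were left out, and the cause was not tested. Calls in the other contrasts stayed within 1.5 times. With total library size the 8 h counts of risers were 5 snoRNP, 15 small subunit, 14 large subunit, 7 exosome, 4 ribosomal protein and 5 regulator genes. RLE factors or DESeq2 each gave 1 snoRNP, 3 small subunit and 1 regulator gene, only the libraries of the contrast gave 1 snoRNP and 1 regulator gene, and the replicate block gave 8 small subunit genes. The induced minus mock difference in the log2 ratio of NUC2 to NUC1 stayed between 0.84 and 0.96 at 8 h, and that in the ratio of FIB2 to FIB1 between 0.03 and 0.23 at 8 h and 0.67 and 0.83 at 24 h, leaving out 1 library at a time, a choice made after seeing the data. Whether replicate numbers pair the libraries was not settled. Deviations of same-numbered libraries correlated over 0.1 in 7 of 18 pairs (range -0.186 to 0.278), and differently numbered pairs ranged from -0.318 to 0.283. With the replicate block, genes called higher at 8 h went from 4785 to 5078. The replicate block changed no other member call. Depth limits chiefly the low genes: NUC2 had 264 counts in its lowest library.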
